A study of Rattus norvegicus with 12 samples.

Results

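The genes described here are the core machinery of autophagy, a list of 35 rat genes taken by their symbols. A member was taken as measured where the array annotation names a probe set for it by that symbol alone. This held for 32 of the 35, each with 1 probe set, out of 15037 named genes on the array. Atg4b, Pik3r4 and Atg2b had no probe set so named and are not analysed here.

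Autophagy delivers cytoplasm to the lysosome inside a double-membraned vesicle, the autophagosome. The ULK complex starts the process, the class III PI3-kinase complex marks the membrane with the lipid PI3P, PI3P-binding and lipid transfer proteins extend it, and a pair of ubiquitin-like conjugation systems attach the ATG8 proteins (the LC3 and GABARAP families) to it, where cargo receptors bind. In well-fed cells mTORC1, the kinase complex that rapamycin inhibits, phosphorylates the ULK complex and holds autophagy back. Cells without tuberin, the product of Tsc2, have constantly active mTORC1. The arrays measured mRNA, so the values below say nothing of proteins or of autophagic flux.

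There were 12 arrays in 4 groups of 3 cultures: ELT3-245 cells in 20 nM rapamycin, ELT3-245 cells in DMSO (the solvent), ELT3 cells in 20 nM rapamycin and ELT3 cells in DMSO, each for 24 hours in IIA complete medium with serum. ELT3 cells lack Tsc2 and came from a leiomyoma, a smooth muscle tumour, in the uterus of an Eker rat. ELT3-245 was established from a single ELT3 xenograft tumour that did not respond to rapamycin in a CB17/SCID mouse, so it is also Tsc2-null and stands for 1 tumour only. Both lines thus lack tuberin, and no group with tuberin was measured. The labels state 20 nM, although the stock and volumes given beside it would make a far higher concentration. Nothing in the labels says that the 3 cultures of a group came from separate experiments, so p-values measure the spread between these cultures, which may be technical.

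Values are log2 signals, in which a difference of 1 is a doubling, and they compare groups for the same gene, not genes with each other. Array medians lay between 6.69 and 6.82, and arrays of a group correlated at 0.9928 to 0.9966 across probe sets. The first principal component across the arrays held 58.1% of the variance and the next 19.3%. Their relation to line and treatment was not tested. A gene is called changed at an adjusted p under 0.05 (limma, Benjamini-Hochberg over all 23188 probe sets) together with a change of at least 1.5-fold, or 0.585 on the log2 scale. An exact permutation test of 3 arrays against 3 cannot give a two-sided p under 0.1, which every pair of groups that does not overlap reaches. Per-array values are given in the order of the replicate numbers 1 to 3.

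Of the markers of smooth muscle, Acta2, Tagln and Des were bright in both lines, while Myh11, a defining gene of mature smooth muscle, had group means of only 4.49 to 4.91 and Myocd of 5.51 to 6.20. The summed signal of the 8 smooth muscle markers (log2 of the sum of linear signals) was 17.24 to 17.42 in ELT3-245 cells in rapamycin, against 16.95 to 17.05 in DMSO, and 18.04 to 18.13 in ELT3 cells in rapamycin, against 16.83 to 16.88 in DMSO. Single markers differed more than the sums in DMSO. There Tagln was 8.56-fold, Myl9 2.14-fold, Cnn1 1.87-fold and Acta2 1.58-fold lower in ELT3-245 than in ELT3. Lmod1 was 2.75-fold, Des 1.93-fold and Myocd 1.58-fold higher. The defining leukocyte genes Ptprc and Adgre1 had group means under 5 everywhere, but the summed signal of the 5 leukocyte markers was 8.43 to 8.54 in ELT3-245 cells in rapamycin, against 9.52 to 9.92 in DMSO, and 8.13 to 8.56 in ELT3 cells in rapamycin, against 8.69 to 9.17 in DMSO. The endothelial genes Cdh5 and Tie1 were also under 5 in every group, whereas Kdr averaged 13.50 in ELT3-245 and 6.27 in ELT3 cells in DMSO, so that the sum over 5 endothelial markers was 13.35 to 13.65 in ELT3-245 cells and 8.03 to 8.11 in ELT3 cells in DMSO, and 11.57 to 11.84 in ELT3-245 cells and 8.01 to 8.23 in ELT3 cells in rapamycin. Tek went against Kdr, with 5.10 in ELT3-245 and 6.67 in ELT3 cells in DMSO, and 5.60 and 7.20 in rapamycin. Pecam1 averaged 5.29 in ELT3-245 and 5.49 in ELT3 cells in DMSO, and 4.61 and 5.49 in rapamycin. These marker levels thus moved with treatment and line alongside the autophagy genes, and their part in the results was not tested. Tsc2 itself gave group means of 9.54 to 10.56, and since the place of its probe set relative to the Eker mutation is not known here, it checks no label.

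The stretches just before the start of the genes that follow are shown because Calcoco1, Wipi1 and Atg13 were among the largest rapamycin increases of the list in both lines, and Sqstm1 was lower with rapamycin in both. Atg4c, not shown, fell by more than Sqstm1 in both lines. Each is the 250 bases before the start in RefSeq (build GRCr8), read 5′ to 3′ on the gene's strand. Capitals mark GC boxes, GGGCGG on either strand. Calcoco1 is at chr7:135727929-135728178, Wipi1 at chr10:95079294-95079543, Atg13 at chr3:98136742-98136991 and Sqstm1 at chr10:35037751-35038000, all on the minus strand.
Calcoco1: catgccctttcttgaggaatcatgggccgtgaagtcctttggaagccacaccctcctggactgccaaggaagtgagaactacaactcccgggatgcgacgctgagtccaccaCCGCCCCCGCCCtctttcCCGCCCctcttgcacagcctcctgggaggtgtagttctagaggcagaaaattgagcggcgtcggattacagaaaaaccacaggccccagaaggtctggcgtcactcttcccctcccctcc
Wipi1: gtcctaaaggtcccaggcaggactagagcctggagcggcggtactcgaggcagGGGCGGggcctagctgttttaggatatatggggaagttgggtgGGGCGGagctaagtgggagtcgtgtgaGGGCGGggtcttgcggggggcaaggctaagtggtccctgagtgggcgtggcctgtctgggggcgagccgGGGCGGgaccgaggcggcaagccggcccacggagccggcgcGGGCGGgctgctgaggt
Atg13: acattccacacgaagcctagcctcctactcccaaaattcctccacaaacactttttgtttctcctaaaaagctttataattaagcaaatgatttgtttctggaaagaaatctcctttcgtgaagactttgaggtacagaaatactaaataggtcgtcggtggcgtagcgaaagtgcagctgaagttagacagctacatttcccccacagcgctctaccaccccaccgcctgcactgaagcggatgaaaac
Sqstm1: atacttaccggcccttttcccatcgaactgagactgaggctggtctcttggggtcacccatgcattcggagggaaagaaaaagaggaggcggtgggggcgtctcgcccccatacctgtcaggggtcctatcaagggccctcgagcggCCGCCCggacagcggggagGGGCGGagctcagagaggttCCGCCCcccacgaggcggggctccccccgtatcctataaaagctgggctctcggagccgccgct
Calcoco1 and Sqstm1 had 3 GC boxes each, Wipi1 5 and Atg13 none. RefSeq windows were at hand for 28 of the 32 measured members, and 19 of these 28 held a GC box, against 30.5% of 33469 windows. The 28 were counted by gene (Uvrag had 2 windows) and the 33469 by window, whether or not the array measured the gene. No share among genes of like signal was computed, and the difference was not tested. The same holds for the motif shares below.

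A second set of motifs was searched in the same windows, on both strands: the E-box CACGTG, its longer form TCACGTGA (which contains it), which is the form bound by TFEB and TFE3 in lysosomal and autophagy genes, the FOXO motif TGTTTAC and the antioxidant response element core TGACNNNGC. CACGTG was found in Atg3 and Atg5 alone, 2 of 28, against 5.59% of all windows, and TCACGTGA in Atg3 alone, against 0.657%. TGTTTAC was in 0 of the 28 (3.21% of all windows) and TGACNNNGC in 4, those of Atg10, Atg4d, Gabarap and Ulk2 (10.1%). The E-box stretches are shown with CACGTG in capitals, for Atg3 on the minus strand at chr11:69159297-69159336 and chr11:69159281-69159313, which overlap, and for Atg5 on the plus strand at chr20:49380799-49380834.
Atg3, first E-box: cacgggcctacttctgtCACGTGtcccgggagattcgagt
Atg3, second E-box: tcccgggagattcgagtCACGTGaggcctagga
Atg5: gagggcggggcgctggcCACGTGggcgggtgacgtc
A match describes the letters only. Of the genes with an E-box in this window, neither was called for rapamycin in either line.

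The effect of rapamycin was compared within each line. In ELT3-245 cells 10 of the 32 measured genes were called, or 31.2%, against 10.6% of all probe sets, and in ELT3 cells 14 were called, or 43.8%, against 15.9%. Every measured gene had a mean signal above the highest array median of 6.82, the lowest being Atg14 at 7.01. All probe sets include many dim ones, and no share among bright probe sets alone was computed. The part of brightness in these shares, and in the later shares of these genes, was not tested. Most calls were increases: 8 rose and 2 fell in ELT3-245 cells, where 5.65% of all probe sets were called higher and 4.98% lower, and 12 rose and 2 fell in ELT3 cells, where 7.47% were called higher and 8.45% lower. The median change over the 32 genes was 0.17 in ELT3-245 and 0.28 in ELT3 cells, against -0.02 and 0.02 over all probe sets. The largest increases in both lines were those of Calcoco1, Wipi1, Map1lc3a and Atg13, and the genes that fell in both were Atg4c and Sqstm1.

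**Figure D1:**
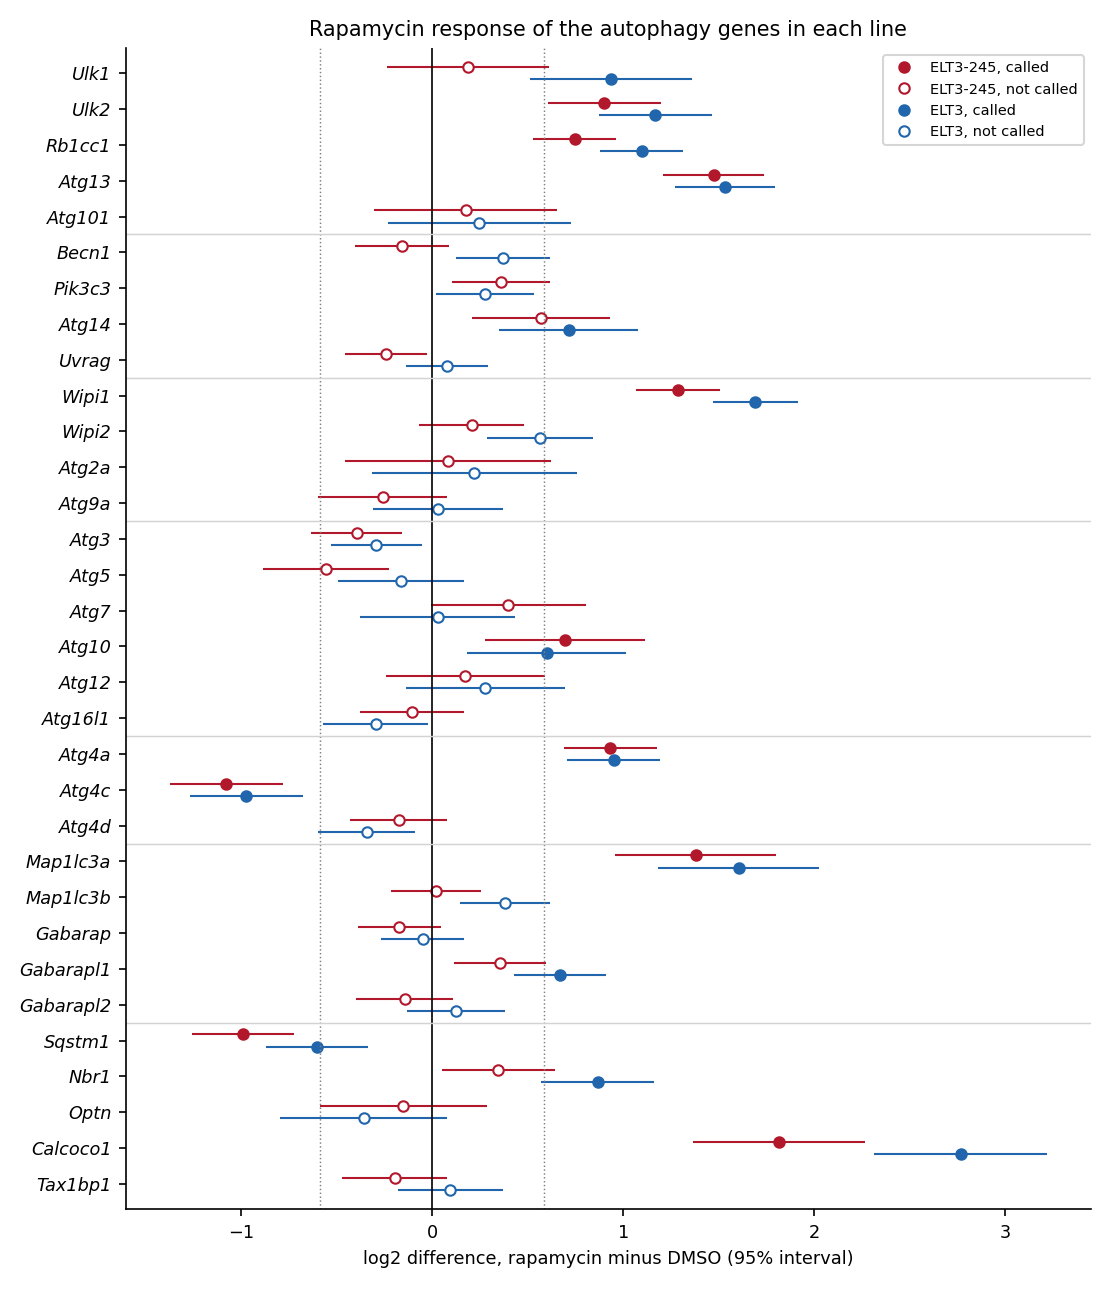
Rapamycin response of the 32 measured autophagy genes, ELT3-245 (red, upper point of each gene) and ELT3 (blue, lower point), as the log2 difference of rapamycin minus DMSO with its 95% interval. Filled points were called, open points were not, dotted lines mark 1.5-fold and grey lines separate the roles; Calcoco1 lies farthest right for each line, at 1.81 (ELT3-245) and 2.77 (ELT3).

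Of the 5 genes of the ULK complex, 3 rose in ELT3-245 cells and 4 in ELT3 cells, with medians of 0.75 and 1.10. Atg13, the regulatory subunit that binds the kinase, had log2 signals of 12.13, 12.22 and 12.19 in ELT3-245 cells in rapamycin, against 10.66, 10.78 and 10.68 in DMSO. In ELT3 cells Atg13 was at 11.88, 11.93 and 11.65 in rapamycin, against 10.33, 10.08 and 10.45 in DMSO. In both lines every rapamycin array lay more than 1 log2 unit above every DMSO array. The change was 1.47 in ELT3-245 (2.78-fold, SE 0.12, adjusted p = 7.08e-06) and 1.53 in ELT3 (2.89-fold, SE 0.12, adjusted p = 3.27e-06).

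Ulk2, a paralog of the kinase Ulk1, was at 11.66, 11.74 and 11.42 in ELT3-245 cells in rapamycin, against 10.65, 10.97 and 10.50 in DMSO. In ELT3 cells Ulk2 was at 11.62, 11.50 and 11.46 in rapamycin, against 10.46, 10.32 and 10.30 in DMSO. The groups did not overlap in either line, and the change was 0.90 in ELT3-245 (SE 0.14, adjusted p = 0.000657) and 1.17 in ELT3 (SE 0.14, adjusted p = 6.19e-05). Rb1cc1, the large scaffold of the complex, was at 12.86, 12.92 and 12.91 in ELT3-245 cells in rapamycin, against 12.25, 12.09 and 12.10 in DMSO. For ELT3 cells the Rb1cc1 signals were 13.18, 13.05 and 13.11 in rapamycin, against 11.93, 11.99 and 12.14 in DMSO. It too rose without overlap, by 0.75 in ELT3-245 (SE 0.10, adjusted p = 0.000274) and by 1.10 in ELT3 (SE 0.10, adjusted p = 1.06e-05).

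Ulk1, the kinase itself, was called in ELT3 cells but not in ELT3-245 cells. It was at 8.99, 8.98 and 9.56 in ELT3-245 cells in rapamycin, against 9.03, 8.90 and 9.05 in DMSO. The values in ELT3 cells were 9.40, 9.15 and 9.77 in rapamycin, against 8.41, 8.32 and 8.78 in DMSO. Only the ELT3 groups stood apart; the difference was 0.19 in ELT3-245 (SE 0.19, adjusted p = 0.608) and 0.94 in ELT3 (SE 0.19, adjusted p = 0.00348). Atg101, which stabilises Atg13, had differences of 0.18 and 0.25 in ELT3-245 and ELT3 and overlapping groups in both lines (adjusted p = 0.679 and 0.474).

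The class III PI3-kinase complex had 4 measured genes, of which none was called in ELT3-245 cells and 1, Atg14, in ELT3 cells. Atg14, the subunit that directs the complex to autophagosome formation, differed by 0.57 in ELT3-245 (1.48-fold, adjusted p = 0.0327), just under the fold threshold, and rose by 0.71 in ELT3 (1.64-fold, adjusted p = 0.00712). Without ELT3-245 DMSO replicate 2 the difference of Atg14 in ELT3-245 was 0.76 (adjusted p = 0.00464) and was called. Becn1, the scaffold beclin, differed by -0.16 in ELT3-245 (adjusted p = 0.422) and by 0.37 in ELT3 (adjusted p = 0.0305, under 1.5-fold). For Pik3c3, the catalytic subunit, the differences were 0.36 and 0.28, and for Uvrag, which takes the place of Atg14 in the endosomal form of the complex, -0.24 and 0.08 (adjusted p of 0.0545 and 0.115, and of 0.125 and 0.632, in ELT3-245 and ELT3).

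Among the PI3P effectors and lipid transfer proteins, 1 of 4 measured genes, Wipi1, was called, in both lines. Wipi1 binds PI3P on the forming autophagosome. It was at 13.65, 13.67 and 13.73 in ELT3-245 cells in rapamycin, against 12.42, 12.49 and 12.28 in DMSO. In ELT3 cells Wipi1 was at 13.33, 13.30 and 13.20 in rapamycin, against 11.50, 11.56 and 11.69 in DMSO. The rapamycin arrays were more than 1 log2 unit above the DMSO arrays in both lines, with a rise of 1.29 in ELT3-245 (2.44-fold, SE 0.10, adjusted p = 5.53e-06) and of 1.69 in ELT3 (3.23-fold, SE 0.10, adjusted p = 5.3e-07).

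Its paralog Wipi2, which recruits Atg16l1 to the membrane, differed by 0.21 in ELT3-245 (adjusted p = 0.335) and by 0.57 in ELT3 (1.48-fold, adjusted p = 0.00572). Wipi2 in ELT3 passed the fold threshold, with values of 0.59 to 0.64, when ELT3 DMSO replicate 1 or 3 or ELT3 rapamycin replicate 1 or 2 was left out. Atg2a, a lipid transfer protein, differed by 0.08 and 0.22 (adjusted p = 0.884 and 0.58), and Atg9a, a membrane-spanning lipid scramblase, by -0.26 and 0.03 (adjusted p = 0.319 and 0.917), in ELT3-245 and ELT3.

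The 6 conjugation enzymes and their partners showed 1 call in each line, Atg10, the E2-like enzyme that joins Atg12 to Atg5. Atg10 was at 8.21, 8.55 and 8.33 in ELT3-245 cells in rapamycin, against 7.71, 8.00 and 7.30 in DMSO. ELT3 cells had Atg10 signals of 8.64, 8.22 and 8.24 in rapamycin, against 7.79, 7.99 and 7.53 in DMSO. The groups did not overlap, although the ELT3-245 DMSO arrays lay far apart, and the rise was 0.69 in ELT3-245 (SE 0.19, adjusted p = 0.0243) and 0.60 in ELT3 (SE 0.19, adjusted p = 0.0374). Atg10 was not called in ELT3-245 without ELT3-245 DMSO replicate 1 (0.72, adjusted p = 0.0578) or 3 (0.51, adjusted p = 0.0994) or ELT3-245 rapamycin replicate 2 (0.60, adjusted p = 0.095) or 3 (0.71, adjusted p = 0.0589). In ELT3 it was not called without ELT3 DMSO replicate 1 (0.61, adjusted p = 0.0795) or 3 (0.48, adjusted p = 0.131), ELT3 rapamycin replicate 1 (0.46, adjusted p = 0.135), ELT3-245 DMSO replicate 1 (adjusted p = 0.0503) or ELT3-245 rapamycin replicate 3 (adjusted p = 0.0502), the last pair leaving the difference at 0.60. The ELT3 call of Atg10 was also lost with quantile normalization (0.56), array weights (0.58) or median centring (0.53, adjusted p = 0.0663).

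Atg5, the partner of Atg12, differed by -0.56 in ELT3-245 (1.47-fold lower, adjusted p = 0.0225) and by -0.16 in ELT3 (adjusted p = 0.493). In ELT3-245 Atg5 was called lower without ELT3-245 DMSO replicate 3 (-0.63), ELT3-245 rapamycin replicate 1 (-0.61) or ELT3-245 rapamycin replicate 2 (-0.59). Atg3, the E2-like enzyme for the ATG8 proteins, differed by -0.39 in ELT3-245 (adjusted p = 0.025) and -0.29 in ELT3 (adjusted p = 0.0712), both under 1.5-fold. Atg7, the E1-like enzyme of both systems, Atg12, the ubiquitin-like protein, and Atg16l1, which brings the Atg12 and Atg5 conjugate to the membrane, had differences between -0.30 and 0.40 in the 2 lines and none passed the test.

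Among the ATG4 proteases, which trim newly made ATG8 proteins and release them from lipid, 2 of 3 measured genes were called in both lines, in opposite directions. Atg4a was at 11.78, 11.69 and 11.74 in ELT3-245 cells in rapamycin, against 10.75, 10.79 and 10.87 in DMSO. In ELT3 cells Atg4a was at 12.35, 12.39 and 12.09 in rapamycin, against 11.30, 11.46 and 11.22 in DMSO. Atg4a thus rose without overlap by 0.93 in ELT3-245 (1.91-fold, SE 0.11, adjusted p = 0.000123) and 0.95 in ELT3 (1.93-fold, SE 0.11, adjusted p = 6.49e-05).

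Atg4c, its paralog, went the other way. It was at 8.25, 8.10 and 8.37 in ELT3-245 cells in rapamycin, against 9.37, 9.40 and 9.18 in DMSO. ELT3 cells had Atg4c signals of 7.48, 7.60 and 7.94 in rapamycin, against 8.72, 8.68 and 8.54 in DMSO. All rapamycin arrays were below all DMSO arrays of the line, and Atg4c changed by -1.08 in ELT3-245 (2.11-fold lower, SE 0.14, adjusted p = 0.00018) and by -0.97 in ELT3 (1.96-fold lower, SE 0.14, adjusted p = 0.000223). Atg4d differed by -0.18 and -0.34 in ELT3-245 and ELT3 (adjusted p = 0.377 and 0.0497, both under 1.5-fold).

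Of the 5 ATG8 proteins, 1 rose in ELT3-245 cells and 2 in ELT3 cells. Map1lc3a, which encodes LC3A, was at 9.41, 9.10 and 9.62 in ELT3-245 cells in rapamycin, against 8.03, 7.58 and 8.39 in DMSO. The ELT3 signals of Map1lc3a were 9.24, 9.27 and 9.31 in rapamycin, against 7.47, 7.68 and 7.85 in DMSO. The ELT3-245 DMSO arrays spread most, yet the groups were apart in both lines, with a rise of 1.38 in ELT3-245 (2.60-fold, SE 0.19, adjusted p = 0.000377) and of 1.60 in ELT3 (3.04-fold, SE 0.19, adjusted p = 7.56e-05).

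Gabarapl1, of the GABARAP family, was at 12.97, 12.83 and 12.78 in ELT3-245 cells in rapamycin, against 12.66, 12.33 and 12.51 in DMSO. In ELT3 cells Gabarapl1 was at 13.52, 13.60 and 13.52 in rapamycin, against 12.97, 12.81 and 12.85 in DMSO. The groups were apart in both lines, but only the ELT3 change was called: the difference was 0.36 in ELT3-245 (1.28-fold, adjusted p = 0.0423) and 0.67 in ELT3 (1.59-fold, adjusted p = 0.000727). Map1lc3b, which encodes LC3B, the usual marker protein of autophagosomes, differed by 0.02 in ELT3-245 (adjusted p = 0.943) and 0.38 in ELT3 (1.30-fold, adjusted p = 0.0219). Gabarap and Gabarapl2 had differences of -0.17 and -0.14 in ELT3-245 and of -0.05 and 0.12 in ELT3, and neither passed the test.

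The 5 cargo receptors held both the largest increase of the list and a decrease. Calcoco1, a receptor reported in human cells for the turnover of endoplasmic reticulum and Golgi, was at 10.79, 10.73 and 10.61 in ELT3-245 cells in rapamycin, against 9.06, 9.06 and 8.57 in DMSO. In ELT3 cells Calcoco1 was at 10.47, 10.42 and 9.94 in rapamycin, against 7.43, 7.18 and 7.92 in DMSO. Every rapamycin array was above every DMSO array of both lines. The change was 1.81 in ELT3-245 (3.52-fold, SE 0.21, adjusted p = 8.81e-05) and 2.77 in ELT3 (6.80-fold, SE 0.21, adjusted p = 2.28e-06).

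Sqstm1, the ubiquitin-binding receptor that is itself degraded by autophagy, fell in both lines. Its signals were 13.86, 13.67 and 13.52 in ELT3-245 cells in rapamycin, against 14.69, 14.79 and 14.54 in DMSO. In ELT3 cells Sqstm1 was at 14.41, 14.22 and 14.18 in rapamycin, against 14.86, 14.96 and 14.79 in DMSO. The groups did not overlap and the change was -0.99 in ELT3-245 (1.98-fold lower, SE 0.12, adjusted p = 0.000157) and -0.60 in ELT3 (1.52-fold lower, SE 0.12, adjusted p = 0.00303). The ELT3 change of Sqstm1 dropped below the fold threshold without ELT3 DMSO replicate 2 (-0.56), ELT3 rapamycin replicate 2 (-0.58) or ELT3 rapamycin replicate 3 (-0.56).

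Nbr1, a receptor related to Sqstm1, was at 11.96, 12.03 and 12.25 in ELT3-245 cells in rapamycin, against 11.79, 11.70 and 11.72 in DMSO. The ELT3 signals of Nbr1 were 11.80, 12.23 and 12.18 in rapamycin, against 11.32, 11.06 and 11.23 in DMSO. Nbr1 was called in ELT3 only, with a difference of 0.34 in ELT3-245 (adjusted p = 0.109) and a rise of 0.87 in ELT3 (1.82-fold, adjusted p = 0.000506). Optn and Tax1bp1, receptors best known for mitochondria and ubiquitinated cargo, had differences of -0.15 and -0.20 in ELT3-245 and of -0.36 and 0.09 in ELT3, and neither passed the test.

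**Figure D2:**
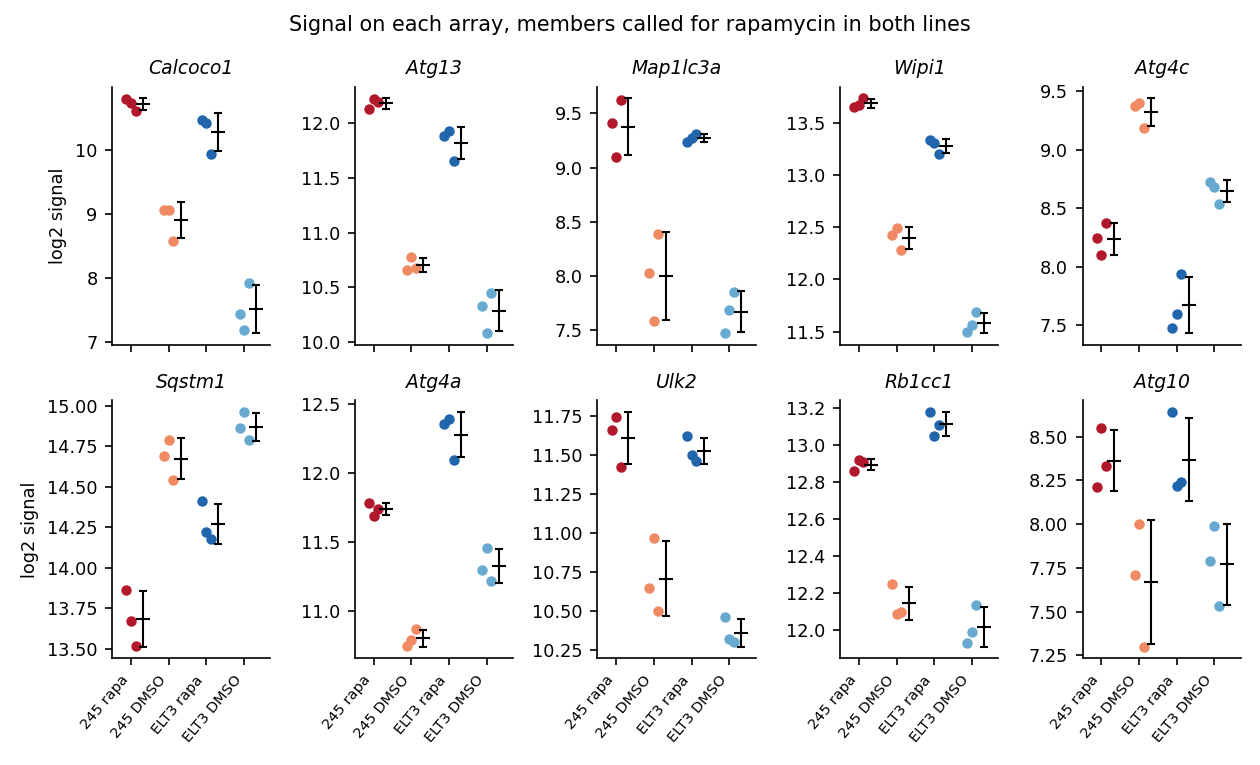
Log2 signal on each array (points) with the mean and SD (bars, n = 3) for the 10 genes called for rapamycin in both lines; within each panel from left to right ELT3-245 rapamycin, ELT3-245 DMSO, ELT3 rapamycin and ELT3 DMSO, with vertical axes that differ between panels and do not start at 0. The rapamycin arrays are above the DMSO arrays of the same line for 8 genes and below them for Atg4c and Sqstm1.

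All 10 genes called in ELT3-245 cells were also called in ELT3 cells with the same direction, which is 100% of the ELT3-245 calls and 71.4% of the ELT3 calls. Among these, Atg10 in either line and Sqstm1 in ELT3 lost their call in some runs with an array left out. Over all probe sets the calls shared by the lines made up 58.8% of the ELT3-245 calls and 39.2% of the ELT3 calls. The responses had the same sign for 27 of the 32 genes and for 14638 of all 23188 probe sets. Across these genes the responses of the lines correlated at r = 0.934, against 0.578 across all probe sets, dim ones included. These comparisons have no array in common, but genes are not independent replicates and no test was made of the correlation.

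The size of the response was then compared between the lines through its difference, the response in ELT3-245 minus the response in ELT3. None of the 32 genes was called, against 4.23% of all probe sets. At an unadjusted p under 0.05 there were 9 of the 32, against 4385 of all 23188 probe sets. Runs of limma with an intensity trend, with array weights, with dim probe sets dropped or with the replicate number as a block each called 1 of the 32. The difference was below 0 for 26 genes and above 0 for 6, with a median of -0.25. Over all probe sets it was below 0 for 11853 and above 0 for 11335, with a median of -0.01. The response was the larger in size in ELT3-245 for 12 genes and in ELT3 for 20, and over all probe sets for 9915 and 13273 of 23188.

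The lowest adjusted p was that of Becn1, at 12.58, 12.67 and 12.83 in ELT3-245 cells in rapamycin, against 12.82, 12.77 and 12.96 in DMSO, and at 12.84, 12.94 and 12.92 in ELT3 cells in rapamycin, against 12.45, 12.45 and 12.69 in DMSO. The ELT3 groups did not overlap and the ELT3-245 groups did, and the responses differed by -0.53 (95% interval -0.87 to -0.18, adjusted p = 0.0914). For Calcoco1 the difference was -0.95 (-1.59 to -0.31, adjusted p = 0.096) and for Wipi1 -0.40 (-0.72 to -0.09, adjusted p = 0.148). Calcoco1 passed with an intensity trend (adjusted p = 0.0288), with array weights (-1.10, adjusted p = 0.0311), with dim probe sets dropped (adjusted p = 0.0399) and without ELT3 DMSO replicate 3 (-1.16, adjusted p = 0.044), the array with the highest Calcoco1 signal of its group.

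Of the 4 genes called for rapamycin in ELT3 but not in ELT3-245, 0 were called for a difference between the responses, although Ulk1 was with the replicate number as a block (-0.75, adjusted p = 0.0496). Their differences were -0.75 for Ulk1 (-1.35 to -0.15, adjusted p = 0.159), -0.52 for Nbr1 (-0.94 to -0.10, adjusted p = 0.161), -0.31 for Gabarapl1 (-0.65 to 0.03, adjusted p = 0.306) and -0.15 for Atg14 (-0.66 to 0.37, adjusted p = 0.796). The closest responses were those of Atg4a, with a difference of -0.02 (-0.36 to 0.33), and Atg13, with -0.06 (-0.43 to 0.31).

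**Figure D3:**
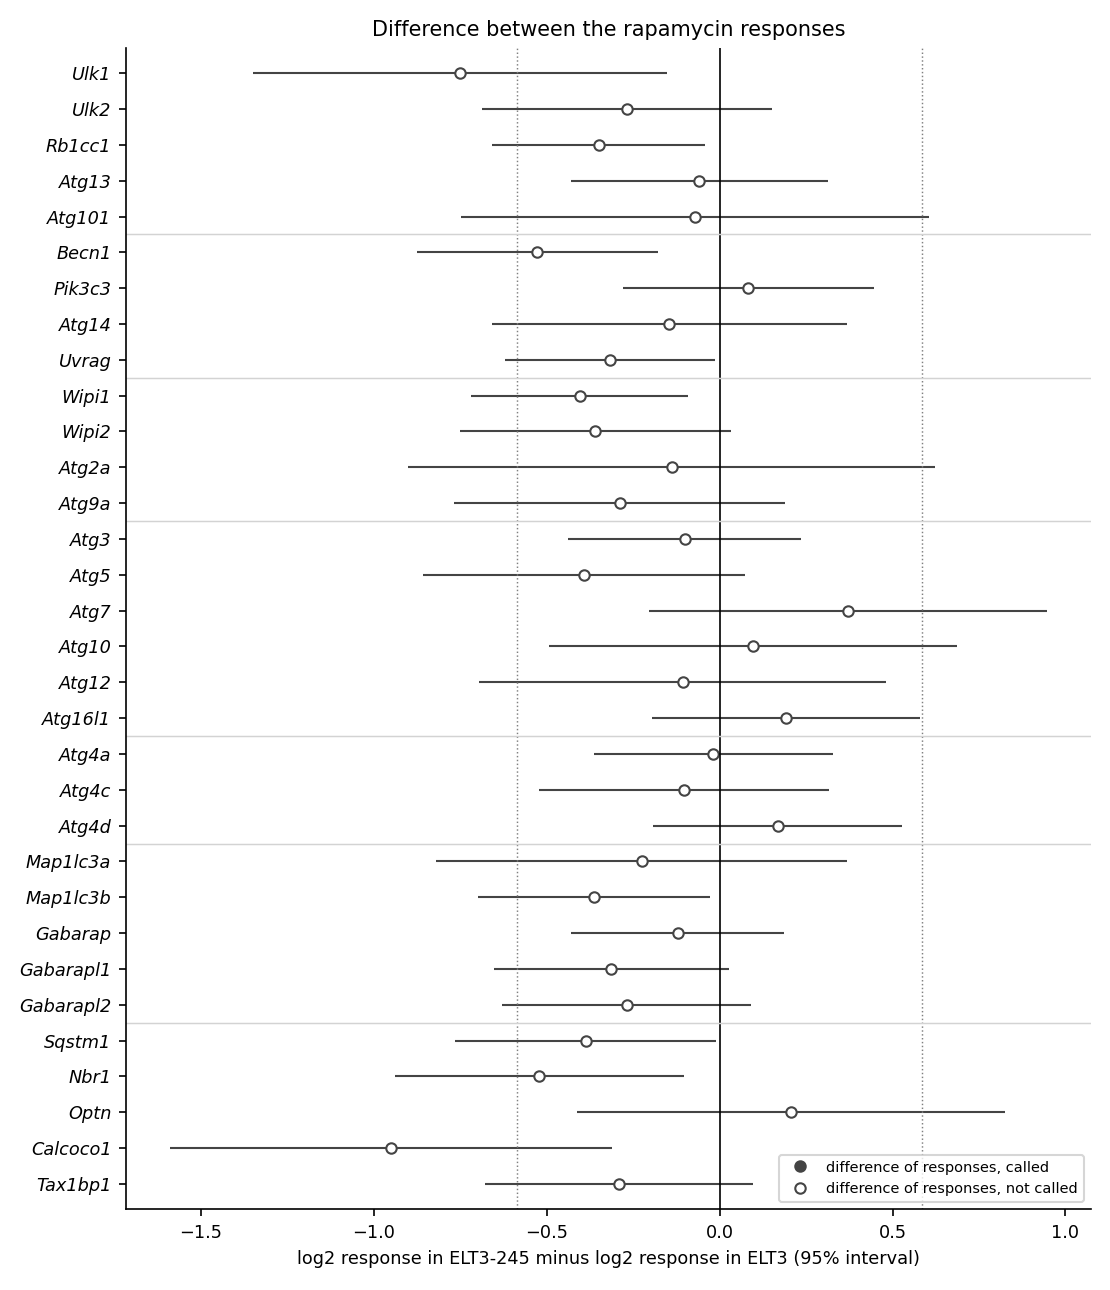
Difference between the rapamycin responses, log2 response in ELT3-245 minus log2 response in ELT3, with its 95% interval, for the 32 measured genes by role; open points were not called and dotted lines mark 1.5-fold. All points are open, 26 lie left of 0, and Calcoco1 lies farthest left at -0.95.

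The lines were next compared in the same treatment, ELT3-245 against ELT3. The comparisons in DMSO and in rapamycin both share their arrays with the rapamycin responses, so the calls are not independent of those above. In DMSO 6 of 32 genes were called, or 18.8%, against 14.9% of all probe sets: 5 were higher in ELT3-245 (7.3% of all probe sets) and 1 was lower (7.56%). In rapamycin 2 were called, or 6.25%, against 16.8%, with 1 higher (8.86%) and 1 lower (7.92%). The median difference was 0.22 in DMSO and -0.05 in rapamycin, against 0.01 and -0.02 over all probe sets.

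Calcoco1 was again the most changed, with the signals given above at 9.06, 9.06 and 8.57 in ELT3-245 and 7.43, 7.18 and 7.92 in ELT3 cells in DMSO, a difference of 1.39 (2.61-fold, SE 0.21, adjusted p = 0.000323). In rapamycin the Calcoco1 difference was 0.44 (SE 0.21, adjusted p = 0.163). Wipi1 was higher in ELT3-245 in DMSO by 0.81 (1.76-fold, SE 0.10, adjusted p = 7.18e-05) and differed by 0.41 in rapamycin (1.33-fold, adjusted p = 0.0102). For Atg4c the differences were 0.67 in DMSO (1.59-fold, SE 0.14, adjusted p = 0.00321), which was called, and 0.57 in rapamycin (1.48-fold, adjusted p = 0.00828), which was not. None of the 3 genes had overlapping lines in either treatment.

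Optn, the receptor optineurin, was called in both treatments. In rapamycin it was at 10.27, 10.27 and 10.35 in ELT3-245 cells and at 9.50, 9.72 and 8.74 in ELT3 cells. The signals in DMSO were 10.50, 10.52 and 10.33 in ELT3-245 cells and 9.76, 9.75 and 9.53 in ELT3 cells. All ELT3-245 arrays were above all ELT3 arrays, with ELT3 rapamycin replicate 3 the lowest, and the difference was 0.98 in rapamycin (1.97-fold, SE 0.20, adjusted p = 0.00307) and 0.77 in DMSO (1.70-fold, SE 0.20, adjusted p = 0.0155). The call in DMSO was lost without ELT3-245 DMSO replicate 1 (0.74, adjusted p = 0.0502), ELT3-245 DMSO replicate 2 (0.73, adjusted p = 0.0502) or ELT3 DMSO replicate 3 (0.70, adjusted p = 0.0543).

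Tax1bp1 was at 12.94, 12.95 and 13.09 in ELT3-245 cells and 12.54, 12.38 and 12.29 in ELT3 cells in DMSO, and at 12.79, 12.80 and 12.80 in ELT3-245 cells and 12.65, 12.61 and 12.23 in ELT3 cells in rapamycin. The lines were apart in both treatments, by 0.59 in DMSO (1.51-fold, adjusted p = 0.00452), which was called, and by 0.30 in rapamycin (adjusted p = 0.113). Tax1bp1 in DMSO sat at the fold threshold and dropped below it without ELT3-245 DMSO replicate 3 (0.54), ELT3 DMSO replicate 2 (0.58) or ELT3 DMSO replicate 3 (0.53), and with quantile normalization (0.57), median centring (0.56) or array weights (0.56).

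Atg7 was the gene called lower in ELT3-245 in DMSO, at 8.18, 8.57 and 8.74 in ELT3-245 cells and 9.11, 9.37 and 9.30 in ELT3 cells. Its difference in DMSO was -0.76 (1.69-fold lower, SE 0.19, adjusted p = 0.0108), and -0.60 (adjusted p = 0.051) without ELT3-245 DMSO replicate 1, the lowest array. In rapamycin Atg7 was at 8.59, 9.15 and 8.95 in ELT3-245 cells and 9.52, 9.31 and 9.02 in ELT3 cells, groups that overlap, with a difference of -0.39 (adjusted p = 0.167).

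Gabarapl1 was the gene called lower in ELT3-245 in rapamycin, where the signals given above, 12.97, 12.83 and 12.78 in ELT3-245 and 13.52, 13.60 and 13.52 in ELT3, differed by -0.69 (1.61-fold lower, SE 0.11, adjusted p = 0.00052). In DMSO Gabarapl1 differed by -0.37 (adjusted p = 0.0295, under 1.5-fold). Uvrag was at 12.18, 12.07 and 12.12 in ELT3-245 and at 12.69, 12.65 and 12.59 in ELT3 cells in rapamycin, apart by -0.52 (1.43-fold lower, adjusted p = 0.00174), which passed the test but not the fold threshold. Close to that threshold in rapamycin were also Sqstm1 at -0.58, Atg4a at -0.54 and Atg4c at 0.57 (adjusted p of 0.00348, 0.00312 and 0.00828). Without ELT3 rapamycin replicate 3 these 3 were called, at -0.63, -0.63 and 0.70, which made 5 calls. Sqstm1 was also called without ELT3-245 rapamycin replicate 1 (-0.67) or ELT3 rapamycin replicate 2 (-0.61), and Atg4c without ELT3-245 rapamycin replicate 2 (0.64).

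By role, 3 of the 6 genes called in DMSO were cargo receptors, 3 of 5 in that role. The others were 1 of 3 ATG8 proteases, 1 of 4 PI3P effectors and lipid transfer proteins and 1 of 6 conjugation enzymes, with 0 of 5 in the ULK complex, 0 of 4 in the PI3-kinase complex and 0 of 5 among the ATG8 proteins. The share over all probe sets was 14.9%, and the roles were not tested against each other. In the ULK complex all 5 differences in DMSO were above 0, from 0.13 for Rb1cc1 to 0.49 for Ulk1, and 1, that of Atg13 at 0.42 (1.34-fold, adjusted p = 0.025), passed the test without reaching 1.5-fold. Nbr1 differed by 0.53 in DMSO (1.45-fold, adjusted p = 0.0134) and was called without ELT3 DMSO replicate 1 (0.59, adjusted p = 0.0206). In rapamycin its lines overlapped, with a difference of 0.01.

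**Figure D4:**
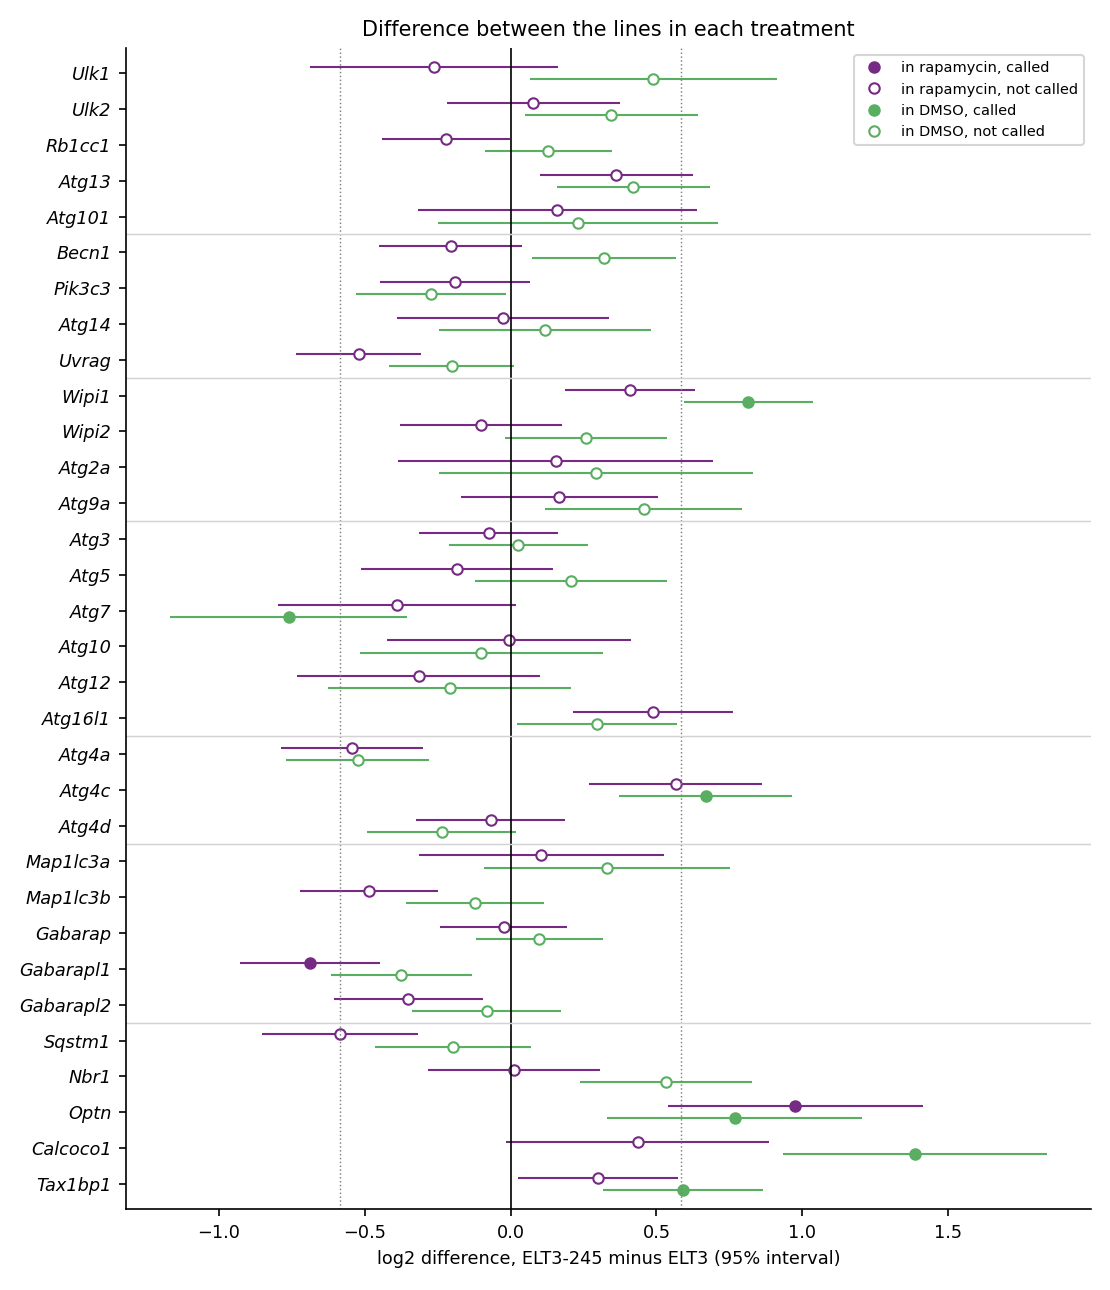
Difference between the lines, log2 signal in ELT3-245 minus ELT3, with its 95% interval, in rapamycin (purple, upper point of each gene) and in DMSO (green, lower point). Filled points were called and dotted lines mark 1.5-fold; Optn is filled in both treatments, Calcoco1, Wipi1, Atg4c, Tax1bp1 and Atg7 in DMSO only, and Gabarapl1 in rapamycin only.

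**Figure D5:**
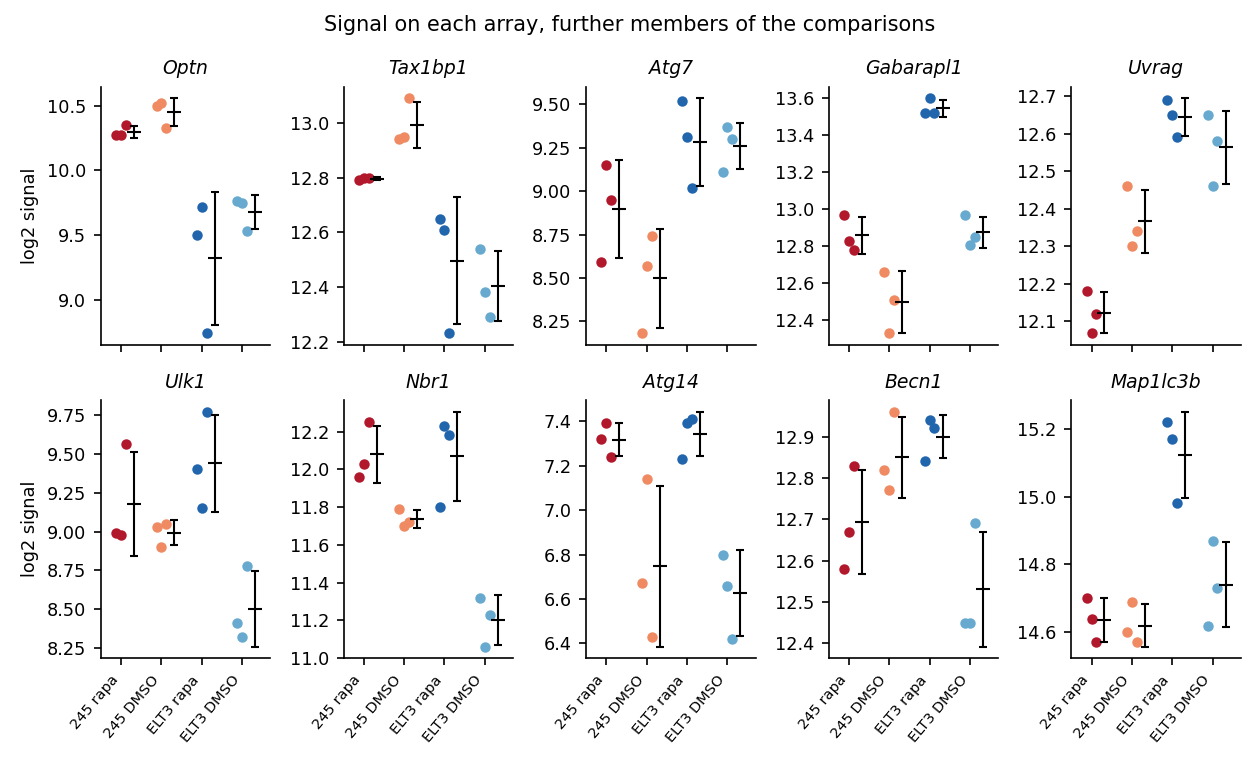
Log2 signal on each array (points) with the mean and SD (bars, n = 3) for 10 further genes; within each panel from left to right ELT3-245 rapamycin, ELT3-245 DMSO, ELT3 rapamycin and ELT3 DMSO, with vertical axes that differ between panels and do not start at 0. The ELT3-245 points lie above the ELT3 points of the same treatment for Optn and Tax1bp1 and below them for Uvrag and Gabarapl1, while the rapamycin and DMSO points of Ulk1 stand apart in ELT3 and overlap in ELT3-245.

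A further list of 48 genes that work with this machinery had 41 measured members, and the rest of that list was not analysed here. With rapamycin 6 of the 41 rose and 3 fell in ELT3-245 cells, or 22% called, against 10.6% of all probe sets. In ELT3 cells 8 rose and 3 fell, or 26.8%, against 15.9%. The calls lay among the selective receptors, 6 of 11 in ELT3-245 and 7 of 11 in ELT3, and the regulators, 3 of 18 and 4 of 18. Of the 12 genes for fusion of autophagosome and lysosome 0 were called in either line with limma, where 5 in ELT3-245 and 6 in ELT3 had an unadjusted p under 0.05. Over all 23188 probe sets, 6662 in ELT3-245 and 8138 in ELT3 had such a p.

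Among the receptors, Ccpg1 and Retreg1, for endoplasmic reticulum, went apart. Ccpg1 rose by 0.96 in ELT3-245 (adjusted p = 4.92e-05) and 1.71 in ELT3 (adjusted p = 5.07e-07), and Retreg1 changed by -1.17 (adjusted p = 3.39e-05) and -1.18 (adjusted p = 2e-05). Of the mitochondrial receptors, Bnip3l rose by 0.89 in ELT3-245 and 1.28 in ELT3 (adjusted p = 0.000103 and 4.25e-06), while Bnip3 changed by -1.21 and -0.84 (adjusted p = 3.05e-05 and 0.000268). Fundc1, another, differed by 0.02 and 0.35 (adjusted p = 0.962 and 0.24). Pink1, the kinase that marks damaged mitochondria, rose by 1.26 and 1.48 (adjusted p = 0.000982 and 0.000184).

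Of the regulators, Wdr45, a PI3P-binding relative of Wipi1, rose by 1.35 in ELT3-245 and 1.42 in ELT3 (adjusted p = 0.000171 and 6.96e-05). In ELT3-245 alone the regulators Foxo1 (0.91) and Bcl2l1 (0.79) were called higher, and Tollip (-0.67), a selective receptor, lower. In ELT3 alone the regulators Bcl2 (1.92), Ambra1 (0.76) and Foxo3 (0.72) were called higher. So was the selective receptor Wdfy3 (0.64) in ELT3 alone, where the selective receptor Phb2 (-0.77) was called lower. None of these 8 had a called difference between the responses. The mRNA of Tfeb, the transcription factor that drives lysosomal and autophagy genes, differed by 0.01 in ELT3-245 and -0.13 in ELT3 with rapamycin, and its relative Tfe3 by -0.19 and -0.48, with no call. Mitf, a further relative, averaged 12.08 in rapamycin and 11.59 in DMSO in ELT3-245, and 11.69 and 11.75 in ELT3, also without a call.

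Between the lines, 6 of the 41 were called higher and 4 lower in ELT3-245 in rapamycin, or 24.4%, against 16.8% of all probe sets. In DMSO 5 were higher and 4 lower, or 22%, against 14.9%. By role, 6 of 18 regulators and 1 of 12 fusion genes were called in each treatment. Of the 11 selective receptors 3 were called in rapamycin and 2 in DMSO, all higher. The fusion gene was Vamp8, which differed by -1.07 in rapamycin and -0.96 in DMSO. The largest receptor differences were 0.68 for Bnip3 in rapamycin and 1.41 for Ccpg1 in DMSO. The largest increase was that of Foxo1, a transcription factor, at 11.66, 11.85 and 11.87 in ELT3-245 and 8.54, 8.76 and 8.45 in ELT3 cells in rapamycin, and at 10.94, 10.91 and 10.82 in ELT3-245 and 8.16, 8.35 and 8.45 in ELT3 cells in DMSO. The lines were apart in both treatments, by 3.21 in rapamycin (adjusted p = 1.14e-09) and 2.57 in DMSO (adjusted p = 9.39e-09). In the other direction Bcl2, which binds beclin, differed by -3.30 in rapamycin and -1.96 in DMSO (adjusted p = 1.93e-06 and 0.0002), and Prkaa2, a catalytic subunit of AMPK, by -2.11 and -2.60 (adjusted p = 1.63e-06 and 2.34e-07). Prkaa1, the other catalytic subunit, was higher in ELT3-245 by 0.81 in rapamycin and 0.64 in DMSO (adjusted p = 0.00119 and 0.00708). Tfeb averaged 7.86 in ELT3-245 and 8.34 in ELT3 cells in rapamycin, and 7.86 and 8.47 in DMSO. Tfe3 averaged 11.88 and 11.23 in rapamycin, and 12.07 and 11.71 in DMSO, in the same order of lines.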

How the data were processed

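RNA of 12 cultures was hybridised to rat Clariom S arrays. The deposited log2 signals, 1 per array and probe set, were made by the authors with RMA (version not given in the notes). RMA scales arrays to each other, so a change of total mRNA is not seen. The array's annotation names 15049 of 23188 probe sets by 1 symbol; the other 8139 took part in every test without a name. All value columns matched a sample.

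The groups came from the labels. limma 3.58.1 in R 4.3.3 fitted 4 group means to 12 arrays (8 residual and 3.91 prior degrees of freedom). A call needed an adjusted p under 0.05 over all probe sets and 1.5-fold, the fold threshold of the study's methods (no source used here names the test behind its p-values). Per-array values were given for the genes called in a comparison by size, at most 10, or the 3 lowest adjusted p where fewer than 3 were called; Foxo1 and the genes in the closing part were added to these. The genes, lists and tests were chosen with earlier results of these data known. Alternatives were each array left out, the replicate block, array weights, median centring, quantile normalization, robust moderation, the intensity trend, dim probe sets dropped, the compared groups alone, limma treat and other fold thresholds. The fit was tested on simulated data. Promoter windows come from RefSeq (GRCr8). Motifs were searched in Python 3.11.15 with pandas 2.3.3, and plots drawn with Matplotlib 3.10.9 and NumPy 2.4.6.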

Additional observations from a re-analysis of the deposited data

Results flagged for a closer look

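Of the 41 further pathway genes, 3 differed between the lines in their rapamycin response, by the limma test of the difference (ELT3-245 minus ELT3), which is 7.32%, against 4.23% of all probe sets.

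Ccpg1, a receptor for the endoplasmic reticulum, was at 14.21, 14.19 and 14.07 in ELT3-245 cells in rapamycin, against 13.31, 13.15 and 13.12 in DMSO. In ELT3 cells it was at 13.39, 13.53 and 13.56 in rapamycin, against 11.75, 11.74 and 11.86 in DMSO. It rose in both lines and by less in ELT3-245, with a difference of -0.75 (adjusted p = 0.0147, and 0.0193 to 0.0426 with any array left out).

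Nrbf2, a partner of the PI3-kinase complex, was at 9.45, 9.56 and 9.73 in ELT3-245 cells in rapamycin, against 9.73, 9.76 and 9.93 in DMSO. In ELT3 cells Nrbf2 was at 9.83, 9.67 and 9.68 in rapamycin, against 8.98, 9.39 and 9.07 in DMSO. The responses, -0.22 in ELT3-245 and 0.58 in ELT3, differed by -0.80 (adjusted p = 0.031). The adjusted p stayed under 0.05 without ELT3-245 rapamycin replicate 3 (0.0362) or ELT3 DMSO replicate 2 (0.0203). Without ELT3 rapamycin replicate 3 it was 0.05, and without any other array it was 0.0533 to 0.0816.

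Stx17, a SNARE for fusion with the lysosome, was at 8.64, 8.95 and 8.89 in ELT3-245 cells in rapamycin, against 8.61, 8.69 and 8.74 in DMSO. In ELT3 cells Stx17 was at 8.59, 8.39 and 8.57 in rapamycin, against 8.93, 9.05 and 9.13 in DMSO. The responses, 0.15 in ELT3-245 and -0.52 in ELT3, differed by 0.67 (adjusted p = 0.0418). The adjusted p stayed under 0.05 only without ELT3-245 rapamycin replicate 1 (0.0358). Without any other array it was 0.0547 to 0.101. With limma treat the adjusted p of all 3 was 1, and with the replicate block it was 0.0324 for Ccpg1, 0.0515 for Nrbf2 and 0.054 for Stx17. The causes were not tested.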

How the results depend on the processing

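The results followed here were 32 pairs of a gene and a comparison, the largest calls of each comparison, at most 10. Where fewer than 3 were called, the lowest adjusted p filled up to 3. The calls of Atg14, Gabarapl1, Sqstm1 and Atg10 for rapamycin in ELT3 were thus not among them. None of the 32 changed direction under any alternative run, but many of these runs could not have changed it. The fold thresholds, limma treat, intensity trend, robust moderation, replicate block, dropped dim probe sets and compared groups alone leave each difference as it was. So does leaving out an array of a group that is not compared. Of the 733 alternative values of the 32 results, these runs included, 681 kept their side of the threshold, 47 lost a call and 5 gained one. The count of genes called depended most on the fold threshold. At 2-fold it was 5 for rapamycin in ELT3-245, 6 for rapamycin in ELT3, 0 for the lines in rapamycin and 1 for the lines in DMSO; with limma treat it was 4, 6, 0 and 1. Without a fold threshold it was 11 for the lines in rapamycin and 10 in DMSO, since fewer conditions then apply. For the lines in rapamycin it was 4 with quantile normalization and 4 with array weights. With an array left out it ranged from 9 to 11 for rapamycin in ELT3-245, 13 to 14 in ELT3, 2 to 5 and 4 to 7 for the lines in rapamycin and in DMSO, and 0 to 1 for the difference of responses. That last count was 1 with the intensity trend, array weights, dim probe sets dropped (Calcoco1) and with the replicate block (Ulk1, adjusted p = 0.0496); where not stated the cause was not tested. Same-numbered arrays did not pair throughout: their deviations correlated at -0.124 to 0.215, with 4 of 18 pairs over 0.1, and 4 of 12 arrays correlated best with their own number. All pairs over 0.1 lay between groups other than ELT3 DMSO, up to 0.215 for replicate 3 of ELT3 rapamycin and ELT3-245 DMSO. With the replicate block the other counts were 10, 14, 2 and 6, as without it. Other probe sets of a symbol could not be tried, since each gene had 1. With 3 arrays per group, differences near 1.5-fold are poorly resolved.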
